A study of Mus musculus with 21 samples.

Results

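Liver tumours that arose without treatment in Trp53 knockout (KO) mice were compared with liver tumours that the carcinogen N-nitrosodiethylamine (DEN) had induced where Trp53 was intact. The comparison used 13 of the 21 arrays of the series, and both groups were chosen by their labels alone. The 6 KO tumours carry the label HCC/CCC, which joins hepatocellular carcinoma (HCC) and cholangiocellular carcinoma (CCC, carcinoma of bile duct type) without saying whether each tumour held both. The 7 DEN tumours are labelled HCC and came from mice given DEN by intraperitoneal injection at 10 µg per g body weight at day 15. All mice are labelled as C57BL/6J, and the KO mice received no treatment. Titles of tumours carry a number ahead of the letter T, taken here to mark the mouse, which gave 5 KO mice (mouse 5 with 2 tumours) and 5 DEN mice (mice 4 and 5 with 2 tumours each). Tumours of 1 mouse were averaged. The sex and the age of the mice, the deleted exons of Trp53 and the cells that lost Trp53 are stated in none of the labels. A difference between the groups may therefore belong to the genotype, to the carcinogen, to the tumour type or to any of these unstated features. The 4 livers of KO mice and the 4 livers of wild-type (WT) mice, all without tumour, are given only as a backdrop.

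The transcription factor p53, encoded by Trp53, halts the cell cycle or starts cell death after damage to DNA. Hepatocytes and the epithelial cells of bile ducts (cholangiocytes) descend from a common fetal progenitor, the hepatoblast. Hepatocytes are kept in their state by a network of factors around HNF4A and CEBPA and make most plasma proteins, while cholangiocytes express SOX9, keratins 7 and 19 and EPCAM and modify bile. HCC resembles the first lineage and cholangiocellular carcinoma the second.

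A level is the log2 processed signal of a probe relative to the 75th percentile of its array, and a fold change is the difference of such levels, KO over DEN, with its standard error (SE). Levels of different probes have no common scale. A gene was called at a Benjamini-Hochberg adjusted p under 0.05 in limma's moderated test across 23242 genes. The 75th percentile was 951.5 to 4258 on KO tumour arrays and 511.8 to 884 on DEN tumour arrays, and 54.8 to 76.5% and 65.0 to 82.4% of probes were well above background. Correlation between arrays of different mice was 0.925 to 0.972 among KO tumours and 0.945 to 0.978 among DEN tumours, against 0.818 to 0.928 between the groups. No slide held both groups, so that group and slide cannot be told apart, also within a scan day. Only scan day 2 held both groups, with KO mice 1 to 3 and DEN arrays 1, 5 and 7 (of mice 1, 4 and 5). For each named gene whose call was lost within scan day 2, the adjusted p within that day is therefore given beside its value. KO mice 4 and 5 shared the brightest slide and a scan day of their own, so that in KO tumours mouse, slide and day cannot be told apart. In KO mice 1 and 2 no Y-linked probe was well above background, whereas the other 8 tumour mice had such probes above it. Precision is limited by how few arrays there are.

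Trp53 itself, read by a probe on chromosome 11 (mm9, 69404204 to 69404263), was at -4.60, -4.96, -4.49, -5.35 and -4.13 in KO mice 1 to 5 and at -2.75, -2.73, -2.48, -2.65 and -2.64 in DEN mice 1 to 5. Every KO mouse was below every DEN mouse. The fold change was -2.06 ± 0.24 (adjusted p 0.000217), and the probe was still well above background on 5 of 6 KO tumour arrays. Whether the probe lies within the deletion is not given, so that the check on the labels is limited to this direction.

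Nearly 1 gene in 2 differed between the tumours. Of the 23242 genes tested, 3917 (16.9%) were higher and 7573 (32.6%) lower in KO tumours, and the share called in either direction was 49.4%. At least 2-fold changes among them numbered 3187 higher (13.7%) and 6223 lower (26.8%). The mice of the groups did not overlap for 2533 genes higher (10.9%) and 4860 genes lower (20.9%) in KO tumours. The median fold change of all genes was -0.32 and the lower share of the calls 65.9%. After normexp background correction and quantile scaling that median was -0.05, with 4942 genes higher (21.3%) and 5836 lower (25.1%), a lower share of 54.1% of the calls. Within scan day 2 there were 3758 genes higher (16.2%) and 5049 lower (21.7%). Fold changes near these medians therefore have a direction that rests on the scaling. Slide as a random block gave 2599 genes higher and 5375 lower. In that fit the tumours of DEN mice 4 and 5, which lay on different slides, entered separately and not as an average per mouse. Among called genes the mean of the 8 livers lay nearer to DEN than to KO tumours for 81.2% of the genes higher in KO tumours and for 74.2% of those lower.

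**Figure D1:**
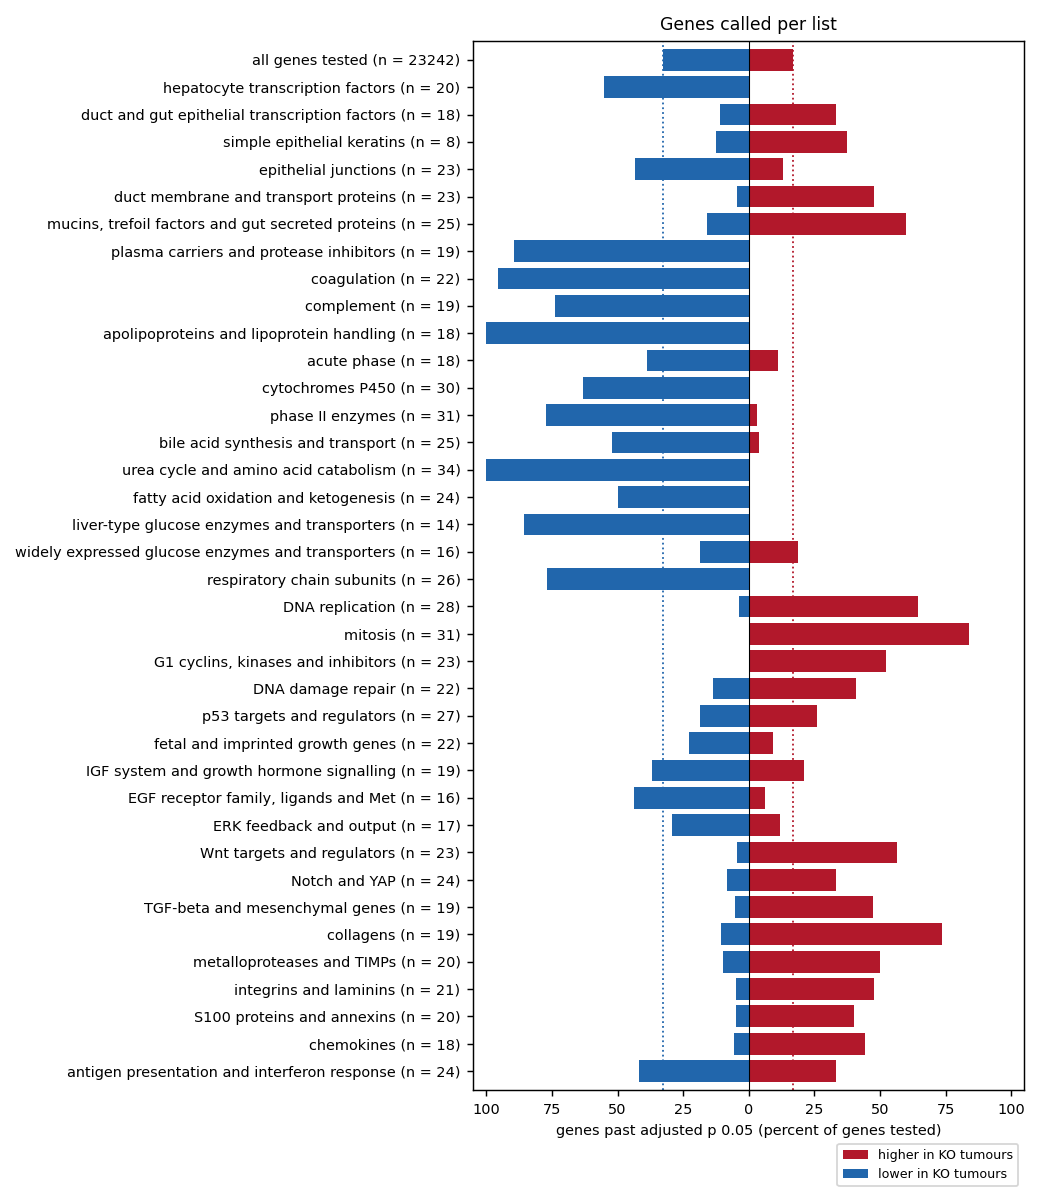
Share of the tested genes of each of 37 lists that were higher (red, to the right) or lower (blue, to the left) in KO than in DEN tumours at adjusted p under 0.05, in percent, with the number of genes tested after each name. Dotted lines mark the shares over all 23242 genes, 16.9% higher and 32.6% lower. All 34 genes of the urea cycle and amino acid list and all 18 of the apolipoprotein list were lower in KO tumours, and 26 of 31 mitosis genes were higher.

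The hepatocyte programme was lower in KO tumours, more widely among its secreted products than among its regulators. Of 20 hepatocyte transcription factors, 11 were lower and 0 higher in KO tumours, with a median fold change of -1.1, and of -1.73 with 13 lower within scan day 2. Without KO mice 1 and 2, 6 of the 20 were lower, and with slide as a random block 8 were. The mice of the groups did not overlap for 4 of the 20, a share close to the 20.9% of all genes lower without overlap. Hnf4a, the nuclear receptor at the centre of this network (chromosome 2, 163398548 to 163398607, mm9), was at 3.24, 4.13, 3.38, 5.69 and 4.50 in KO mice 1 to 5 and at 6.31, 6.06, 6.76, 6.36 and 6.58 in DEN mice 1 to 5. The groups did not overlap, DEN mice lay within 1 unit of each other, and KO mouse 4 came closest to them. The change was -2.22 ± 0.43 (adjusted p 0.00204). In bulk tumours, fewer cells of a type and less RNA per cell cannot be told apart, here and in all results that follow. Foxa3, a forkhead factor of the liver, fell by 1.95 ± 0.45 (adjusted p 0.00489), Rxra, the partner of many nuclear receptors, by 1.68 ± 0.33 (0.00226) and the estrogen receptor gene Esr1 by 2.11 ± 0.40 (0.00189). Cebpa fell by 1.05 ± 0.38 (0.039). The pioneer factors Foxa1 (-0.29) and Foxa2 (0.07), which open chromatin in the endoderm that gives rise to liver and gut, did not pass the test.

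Secreted liver proteins followed the same order. In KO tumours 17 of 19 plasma carriers and protease inhibitors (median -2.15), 21 of 22 coagulation genes (median -2.73), 14 of 19 complement genes (median -1.62) and all 18 genes of apolipoproteins and lipoprotein handling (median -3.09) were lower, and none was higher, also at an unadjusted p under 0.05 in limma. After normexp and quantile scaling 9 of the 19, 18 of the 22, 10 of the 19 and 15 of the 18 were lower. Albumin (Alb, chromosome 5, 90901598 to 90901657, mm9) read 5.04, 7.03, 7.13, 8.46 and 7.43 in KO mice against 9.51, 8.83, 9.37, 9.32 and 9.56 in DEN mice, a fold change of -2.30 ± 0.52 (adjusted p 0.00444). All KO mice were below all DEN mice, and the KO mice spread over more than 3 units. F11, coagulation factor XI, fell by 4.46 ± 0.64 (0.000539), Apoa4, an apolipoprotein of triglyceride-rich particles, by 5.57 ± 0.70 (0.000286), and the complement lectin Mbl2 by 6.62 ± 0.75 (0.000185). Mbl2 read -1.72, -1.43, 0.89, -2.38 and 1.83 in KO mice and 6.95, 5.73, 5.49, 6.19 and 5.91 in DEN mice. Fgb, the beta chain of fibrinogen, fell by 1.42 ± 0.31 (0.00375). The acute phase list was mixed, with 7 of 18 genes lower and 2 higher, near the 32.6% and 16.9% of all genes. The 2 higher were Saa2, a serum amyloid (2.12 ± 0.65, 0.0203, and 0.146 within scan day 2), and Socs3, a feedback inhibitor of STAT3 signalling (1.65 ± 0.39, 0.00579). The pentraxin Apcs fell by 3.57 ± 0.40 (0.000178).

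Liver metabolism was lower in KO tumours in nearly every branch. All 34 genes of the urea cycle and of amino acid catabolism were lower, and 32 of them after normexp and quantile scaling. Cps1, the entry enzyme of the urea cycle (chromosome 1, 67276029 to 67276088, mm9), read -4.38, -2.88, -1.79, 0.23 and 1.53 in KO mice and 3.47, 4.09, 3.73, 3.62 and 3.44 in DEN mice. KO mice spread over almost 6 units and stayed below the narrow DEN range. The fold change was -5.12 ± 0.93 (adjusted p 0.00158). Arg1, which splits arginine into urea and ornithine, fell by 3.69 ± 0.36 (9.47e-05), Cbs, which makes cystathionine, by 3.36 ± 0.42 (0.000292), and Agxt, which detoxifies glyoxylate, by 4.68 ± 0.60 (0.000318). Of 30 cytochromes P450, 19 were lower and none higher (median -2.42), among them Cyp2c29 at -3.04 ± 0.53 (0.00131) and Cyp2d26 at -3.50 ± 0.67 (0.00209). Only 4 of the 30 were lower without overlap of the mice, against 20.9% of all genes. Without KO mice 1 and 2, 8 of the 30 were lower, and with slide as a random block 11 were. Cyp2e1, an ethanol-oxidising P450 of the pericentral liver, was at 3.18, 3.1, 5.71, 4.44 and 5.07 in KO mice and at 3.71, 2.49, -0.05, 6.68 and 4.49 in DEN mice. Its groups overlapped (0.84 ± 1.07, adjusted p 0.538). Of 31 conjugating (phase II) enzymes, 24 were lower and 1, the sulfotransferase gene Sult1c2 (2.33 ± 0.60, 0.00904, and 0.0741 within scan day 2), was higher.

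Of 25 genes of bile acid synthesis and transport, 13 were lower and 1 higher in KO tumours. The higher one was Slc51a, 1 subunit of the basolateral bile acid exporter (3.64 ± 0.74, adjusted p 0.00268, and above background on 4 of 6 KO and 1 of 7 DEN tumour arrays). The sterol exporters Abcg5 (-5.35 ± 0.90, 0.00108) and Abcg8 (-5.02 ± 0.92, 0.00166), which work as a pair, fell together. Cyp7a1, the rate-limiting enzyme of bile acid synthesis, differed by 0.17 and did not pass the test. Liver-type glucose genes were lower for 12 of 14, with the gluconeogenic enzymes Fbp1 at -3.60 ± 0.47 (0.00033) and Pck1 at -4.14 ± 0.76 (0.0016). In the widely expressed glucose list 3 of 16 genes were higher and 3 lower, against 16.9% and 32.6% of all genes. The 3 higher became 1 without DEN mouse 3, DEN mouse 4, KO mouse 1 or KO mouse 2, left out one at a time, and 0 without KO mice 1 and 2 together or with slide as a random block. Hk2 (1.67 ± 0.64, 0.0494), Pkm (1.65 ± 0.52, 0.0235, and 0.1 within scan day 2) and Pfkfb3 (1.59 ± 0.47, 0.0177), which start, finish and stimulate glycolysis, were the higher ones, and Ldha (-0.90), Gapdh (-0.79) and Tpi1 (-0.86) were lower, with adjusted p of 0.0663, 0.0597 and 0.0754 within scan day 2. After normexp and quantile scaling these 3 stood at -0.01, 0.11 and -0.25 and none was called, so that their direction rests on the scaling. Fatty acid oxidation genes were lower for 12 of 24 and respiratory chain subunits for 20 of 26 (median -0.79), with 0 higher in both, against 1 and 0 at an unadjusted p under 0.05. Uqcrfs1, the iron-sulfur subunit of complex III, fell by 1.43 ± 0.22 (0.000645). After normexp and quantile scaling only 9 of the 26 respiratory genes were called lower.

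Duct and gut epithelial genes were higher in KO tumours, though not as whole families. Of 18 transcription factors of these epithelia 6 were higher and 2 lower, with a median fold change of 0.14. That median was 0.87 within scan day 2 and -0.04 without DEN mouse 1, and without KO mouse 3 it was 0.04. Klf5, a zinc finger factor of gut crypts and ducts, read 0.62, 0.74, 0.74, -3.50 and -1.28 in KO mice and -5.74, -3.63, -7.17, -5.25 and -4.66 in DEN mice (4.75 ± 0.90, adjusted p 0.00189). KO mice 1 to 3 stood well above the DEN mice, and KO mouse 4 lay just above the highest of them. The ETS factor Elf3 (3.16 ± 0.61, 0.00215) and Onecut2 (2.91 ± 0.57, 0.0023) were also higher. Sox9, the duct factor, was at 1.76, 0.77, 2.17, 1.68 and 0.54 in KO mice and at 0.42, 0.45, 0.65, -0.49 and 0.50 in DEN mice (1.08 ± 0.36, 0.028, and 0.0509 within scan day 2). The groups overlapped, since KO mouse 5 lay below DEN mouse 3. Grhl1, a grainyhead factor of surface epithelia, fell by 2.28 ± 0.49 (0.00371) and Foxq1 by 1.24 ± 0.41 (0.0269, and 0.0883 within scan day 2).

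Epcam, the adhesion protein of duct and progenitor cells (chromosome 17, 88048972 to 88049800, mm9), was at 3.09, 2.64, 2.90, 0.24 and 1.42 in KO mice and at -4.59, -2.78, -7.82, -3.67 and -4.53 in DEN mice. Every KO mouse was at least 3 units above the highest DEN mouse. The fold change was 6.74 ± 0.88 (adjusted p 0.00035). Krt19 read 3.32, 2.72, 3.41, -3.98 and 1.59 in KO mice and -3.02, -1.70, -4.82, -2.43 and -3.37 in DEN mice (4.48 ± 1.29, 0.015), and Krt7 0.97, -0.73, 1.09, -5.11 and -0.14 against -4.52, -3.60, -7.08, -4.11 and -4.30 (3.94 ± 1.12, 0.0144). For both keratins KO mouse 4 lay inside the DEN range and the other 4 KO mice above it. Epcam, Krt19 and Krt7 belong to the cholangiocyte markers, whose median fold change was 3.27, and 1.11 after normexp and quantile scaling. The size of such fold changes therefore depends on how low signal is processed. Krt20, a keratin of gut epithelium, was higher in every KO mouse (5.07 ± 0.77, 0.000683). Krt8 (0.46) and Krt18 (-0.30), the keratin pair that hepatocytes and ducts share, did not pass the test, and Krt80 fell by 2.76 ± 0.39 (0.000469).

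Junction genes split: 3 of 23 were higher (Epcam, the intestinal cadherin Cdh17, with 0.0653 within scan day 2, and Marveld3) and 10 lower, including the claudins Cldn14 (-2.78 ± 0.45, 0.00093) and Cldn1 (-3.19 ± 0.60, 0.00196) and the tight junction protein gene Ocln (-1.98 ± 0.41, 0.00302, and 0.0768 within scan day 2). Over all genes 16.9% were higher and 32.6% lower. The median fold change of the junction genes was -0.62, and -0.09 within scan day 2. After normexp and quantile scaling it was -0.13, with 4 genes higher and 8 lower. Cdh1, E-cadherin, was at 1.49, 2.29, 3.01, 2.37 and 2.43 in KO mice and at 3.13, 3.20, 3.46, 2.39 and 2.32 in DEN mice, and it did not pass the test (-0.58 ± 0.33, 0.161). Of 23 duct membrane and transport genes 11 were higher and 1 lower (median 1.5). The water channel gene Aqp5 rose by 7.34 ± 1.25 (0.00118), Cd24a, a surface glycoprotein of progenitor cells, by 3.96 ± 0.56 (0.000508), and Slc12a2, a chloride importer of secretory epithelia, by 3.38 ± 0.52 (0.000687). Spp1, osteopontin, which duct cells secrete, rose by 3.67 ± 0.57 (0.000777). Slc4a2, an anion exchanger of bile secretion, fell by 1.06 ± 0.28 (0.00917). Prom1 (CD133), a progenitor marker, was at 4.41, 3.97, 4.37, 2.02 and 3.08 in KO mice and at 3.21, 3.63, 3.80, 3.06 and 4.25 in DEN mice, which overlapped (-0.02 ± 0.46, 0.971).

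**Figure D2:**
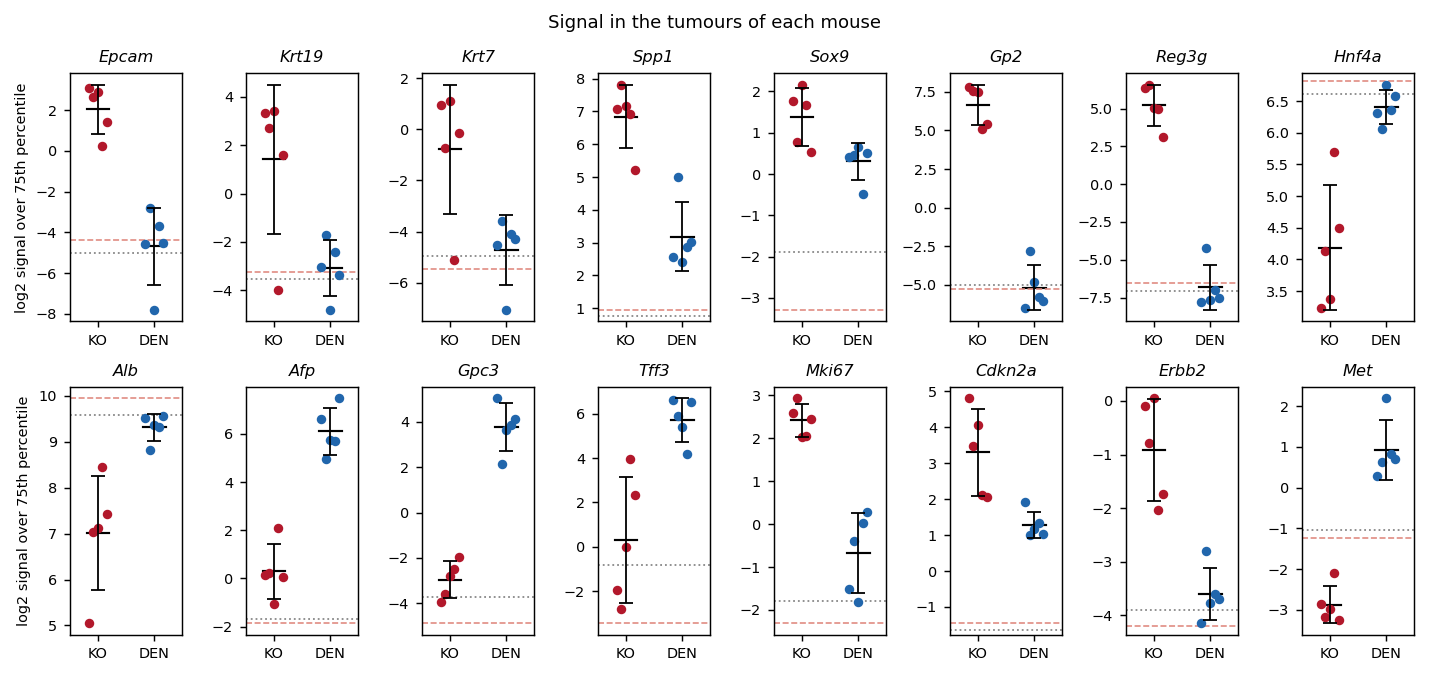
Level (log2 units, 75th percentile of each array set to 0) of 16 genes in the tumours of each mouse, KO mice (red, left, n = 5) and DEN mice (blue, right, n = 5), mice 1 to 5 from left to right. Black bars give the mean ± SD, the dashed line the mean of 4 KO livers and the dotted line that of 4 WT livers. The groups did not overlap for Epcam, Hnf4a, Gp2 or Met, whereas KO mouse 4 fell within the DEN range for Krt19 and Krt7.

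Genes for secreted or surface proteins of gut and pancreas were among those with the largest rises. Of 25 genes for mucins, trefoil factors and other gut secretions, 15 were higher and 4 lower in KO tumours (median 3.15, and 1.72 after normexp and quantile scaling). Gp2, a membrane glycoprotein of pancreatic acini and of intestinal M cells, read 7.79, 7.59, 7.47, 5.07 and 5.43 in KO mice and -6.47, -2.82, -4.84, -5.79 and -6.04 in DEN mice (11.86 ± 0.77, adjusted p 1.79e-05). The lectins Reg3g (12.06 ± 0.80, 1.79e-05) and Reg3b (11.50 ± 1.87, 0.000923) act against gut bacteria. Reg3b read 2.12 in DEN mouse 2 and -8.23 to -7.64 in the other 4 DEN mice, against 2.79 to 7.10 in KO mice. Signal of both lectin genes exceeded background on 1 of 7 DEN tumour arrays, so that the size of their fold changes rests on signal near background, and related Reg genes may share signal. The scavenger protein gene Dmbt1, with no DEN tumour array above background, was at least 1296-fold higher, a bound that sets KO tumours against the lowest signal well above background. Guca2b, a peptide that drives chloride secretion, rose by 9.51 ± 0.63 (1.79e-05), Fcgbp, a mucus protein, by 9.02 ± 0.82 (6.82e-05), and the membrane mucin gene Muc13 by 5.84 ± 0.98 (0.00108).

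Members of the same list also moved the other way. Tff3, the trefoil peptide of goblet cells and bile ducts, was at -1.97, -2.79, -0.03, 3.94 and 2.35 in KO mice and at 6.61, 5.88, 5.39, 4.16 and 6.52 in DEN mice. KO mouse 4 reached almost to the lowest DEN mouse, and the groups did not overlap (-5.41 ± 1.17, adjusted p 0.00373). Muc5ac, the gastric surface mucin, fell by 2.42 ± 0.24 (9.68e-05), and Spink1, a trypsin inhibitor, was also lower in KO tumours, by 3.29 on the log2 scale. Gkn1, a gastric peptide, was not well above background on any KO tumour array and was so on 4 of 7 DEN tumour arrays, so that no fold is given (adjusted p 0.0198, and 0.41 within scan day 2). Markers of the acinar pancreas went the other way from Gp2 and the Reg genes: of 8 tested, 5 were lower and 0 higher (median -1.65, and -0.28 after normexp and quantile scaling), with the protease precursor Ctrb1 at -3.20 ± 0.28 (6.66e-05). Within scan day 2 only 2 of the 8 were lower (median -0.95). Of 6 markers of intestinal epithelium, the microvillus protein gene Vil1 was higher (3.79 ± 1.23, 0.0257), and Mep1a (-4.57 ± 0.81, 0.00143) and Sis (-2.0 ± 0.53, 0.0108) were lower. These shares were close to the 16.9% and 32.6% of all genes.

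Among other genes with the largest rises were Spib, an ETS factor of B cells and intestinal M cells (8.36 ± 0.65, adjusted p 3.67e-05), Cybrd1, a duodenal iron reductase (at least 161-fold), Amph, amphiphysin, of endocytosis (8.94 ± 0.57, 1.79e-05), the homeobox gene Dbx2 (at least 101-fold), Wfdc18 (8.55 ± 0.75, 6.4e-05) and Lbhd2 (9.17 ± 0.83, 6.82e-05). Spib was at 5.32, 6.26, 4.41, 3.20 and 3.68 in KO mice and at -4.31, -4.97, -4.33, -2.55 and -2.77 in DEN mice. Among the largest falls were those of Gldn, gliomedin (-10.00 ± 0.99, 9.76e-05), the progesterone-reducing enzyme gene Akr1c18 (-7.59 ± 0.98, 0.00032), Erich4 (-7.50 ± 1.19, 0.000818), Mgam2-ps (-7.30 ± 0.64, 6.4e-05), Fbxw15 (-6.89 ± 0.94, 0.000421), the glucuronosyltransferase gene Ugt2b1 (-6.75 ± 0.96, 0.000506), Mep1b (-6.35 ± 1.05, 0.00098) and the inositol oxygenase gene Miox (-6.06 ± 0.55, 6.82e-05). Pnpla5 was at least 28.7-fold and Slco6b1 at least 18.8-fold lower in KO tumours, with no KO tumour array above background. Gldn read -7.63, -7.27, -8.70, -6.67 and -2.31 in KO mice and 3.78, 2.95, 3.97, 2.74 and 3.99 in DEN mice, where the livers averaged -6.46 (KO) and -5.52 (WT). The DEN tumours thus stood above both the KO tumours and the livers.

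The same holds for the fetal liver genes with the largest falls. Gpc3, a cell surface proteoglycan of fetal liver (chromosome X, 49625740 to 49625799, mm9), was at -3.93, -3.59, -2.80, -2.47 and -1.97 in KO mice and at 5.04, 2.13, 3.61, 3.86 and 4.11 in DEN mice (-6.70 ± 0.54, adjusted p 3.99e-05), while the means of KO and WT livers were -4.88 and -3.70. Afp, the fetal counterpart of albumin, was at 0.16, 0.24, -1.07, 2.08 and 0.04 in KO mice and at 6.63, 4.97, 5.76, 5.72 and 7.50 in DEN mice (-5.82 ± 0.60, 0.000117). For both genes every DEN mouse lay above every KO mouse. Of 22 fetal and imprinted growth genes 2 were higher, the chromatin proteins Hmga2 (1.06 ± 0.31, 0.0171) and Hmga1 (0.74 ± 0.24, 0.0236, and 0.101 within scan day 2, with another probe moving the opposite way), and 5 lower. Both shares were below the 16.9% and 32.6% of all genes. The imprinted pair varied from mouse to mouse. H19, a noncoding RNA, read 1.02, 1.46, 3.52, 7.69 and 4.23 in KO mice and 6.97, 2.82, -1.39, 3.74 and 3.35 in DEN mice (0.48 ± 1.55, 0.814), and Igf2, a fetal growth factor, differed by 0.37 ± 1.03 (0.787).

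Cell cycle genes were higher in KO tumours. Of 31 mitosis genes 26 were higher and 0 lower (median 2.10), and of 28 DNA replication genes 18 were higher and 1, Cdc45, lower (median 1.03). Mki67, the marker of cycling cells (chromosome 7, 142881591 to 142881650, mm9), was at 2.59, 2.94, 2.04, 2.04 and 2.46 in KO mice and at -1.5, -0.38, -1.82, 0.04 and 0.27 in DEN mice. KO mice lay within 1 unit of each other and above all DEN mice, which spread over about 2 units. The fold change was 3.09 ± 0.42 (adjusted p 0.000407). Top2a, which untangles DNA, rose by 3.28 ± 0.46 (0.000477), Incenp, of the chromosomal passenger complex, by 2.30 ± 0.36 (0.000744), Plk1, a mitotic kinase, by 2.53 ± 0.51 (0.00271, and 0.0664 within scan day 2) and Bub1b, of the spindle checkpoint, by 2.67 ± 0.45 (0.00104). Mcm3 (2.22 ± 0.30, 0.000398) and Mcm4 (1.95 ± 0.30, 0.00076), of the replicative helicase, and Pold1, a DNA polymerase subunit (2.51 ± 0.44, 0.0013), were higher in every KO mouse. Cdc45 was at -5.22 to -4.10 in KO mice and at -4.18 to -3.07 in DEN mice (-1.14 ± 0.29, 0.00897), and within scan day 2 its change was -0.38 (0.265). After normexp and quantile scaling the mitosis median was 1.28, with the same 26 genes higher, and within scan day 2 it was 2.12, with 18 higher.

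Promoters of these genes are printed because elements named CHR, which the DREAM and MuvB complexes bind in late cell cycle genes, and E2F, of DNA replication genes, give a reader the letters behind such lists. Each window of 300 bases spans the start of the gene (RefSeq, GRCm38.p6), with 1 window per gene, the first listed. In Plk1 (chr7:122159185-122159484, plus strand) and Bub1b (chr2:118597961-118598260, plus strand) capitals mark the CHR, TTTGAA or TTCGAA on either strand. In Cdc6 (chr11:98907901-98908200, plus strand) and Mcm6 (chr1:128359656-128359955, minus strand) they mark an E2F octamer, TTTCCCGC, TTTGGCGC, TTTCGCGC or TTTGCCGC on either strand, overlapping matches included.
Plk1: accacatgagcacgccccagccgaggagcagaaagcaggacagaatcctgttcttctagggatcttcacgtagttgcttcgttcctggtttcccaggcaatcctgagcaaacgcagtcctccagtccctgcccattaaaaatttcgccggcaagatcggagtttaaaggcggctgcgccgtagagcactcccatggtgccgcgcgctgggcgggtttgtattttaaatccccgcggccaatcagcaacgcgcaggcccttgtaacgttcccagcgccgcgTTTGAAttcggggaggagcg
Bub1b: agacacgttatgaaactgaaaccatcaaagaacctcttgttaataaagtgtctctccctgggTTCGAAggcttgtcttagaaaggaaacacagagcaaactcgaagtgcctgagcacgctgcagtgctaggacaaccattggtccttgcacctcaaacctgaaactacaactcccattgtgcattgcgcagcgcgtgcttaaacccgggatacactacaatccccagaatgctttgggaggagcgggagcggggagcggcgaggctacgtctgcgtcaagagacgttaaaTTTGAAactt
Cdc6: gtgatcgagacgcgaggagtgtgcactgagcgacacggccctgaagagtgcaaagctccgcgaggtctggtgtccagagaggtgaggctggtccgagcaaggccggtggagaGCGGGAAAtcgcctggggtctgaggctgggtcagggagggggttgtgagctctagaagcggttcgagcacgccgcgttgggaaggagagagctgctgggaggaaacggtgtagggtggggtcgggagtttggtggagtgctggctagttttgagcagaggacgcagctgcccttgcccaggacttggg
Mcm6: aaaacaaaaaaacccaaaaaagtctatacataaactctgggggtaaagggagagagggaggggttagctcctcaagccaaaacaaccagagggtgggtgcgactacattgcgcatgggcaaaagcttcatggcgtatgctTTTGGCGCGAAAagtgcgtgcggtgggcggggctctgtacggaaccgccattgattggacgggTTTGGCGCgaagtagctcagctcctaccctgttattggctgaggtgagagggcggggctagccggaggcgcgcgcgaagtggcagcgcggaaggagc
The CHR was in 19 of 25 mitosis promoters (76%), 5 of 23 replication promoters (21.7%) and 19.4% of all promoters, and the CCAAT box in 76%, 65.2% and 37.9%. An E2F octamer was in 10 of 23 replication promoters (43.5%), 1 of 25 mitosis promoters (4%) and 2.32% of all. Cdc6, which loads the helicase, rose by 2.62 ± 0.55 (adjusted p 0.00312), and Mcm6 by 1.84 ± 0.33 (0.00158). The lists were not chosen by these letters, and no binding was measured.

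**Figure D3:**
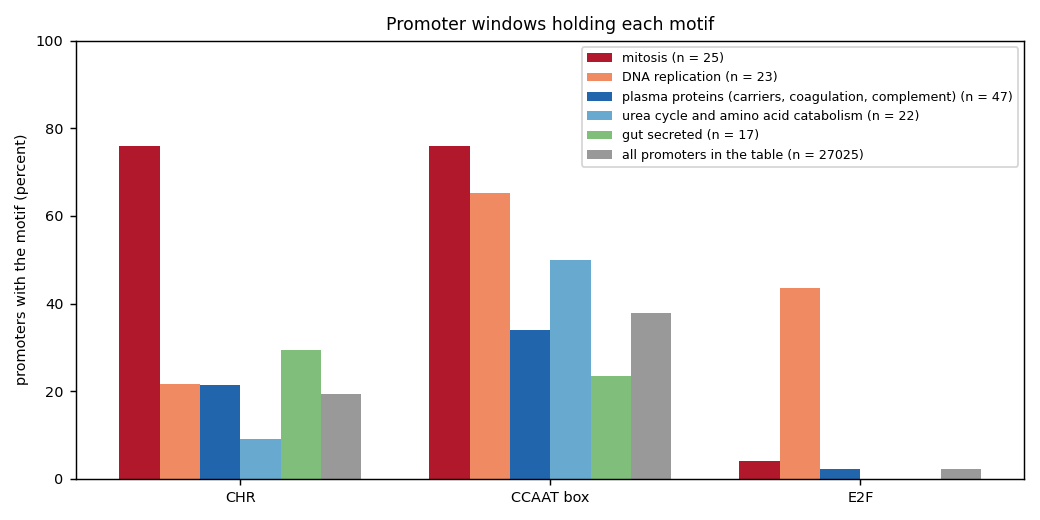
Percent of promoter windows that hold each of 3 motifs, by gene list, with all 27025 promoters of the RefSeq table in grey and the number of windows in the legend. The CHR stood in 76% of mitosis promoters against 19.4% of all, and the E2F octamers in 43.5% of replication promoters against 2.32%.

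Regulators of the G1 phase were higher for 12 of 23 genes and lower for none, with 14 higher and 1 lower at an unadjusted p under 0.05. The factors E2f1 (2.08 ± 0.35, adjusted p 0.00109) and E2f8 (2.11 ± 0.46, 0.00379, and 0.0568 within scan day 2) and the kinase gene Cdk4 (0.88 ± 0.20, 0.00525) rose. Cdkn2a, which encodes the inhibitor p16 and the p53 activator p19ARF, was at 4.82, 3.49, 4.05, 2.10 and 2.06 in KO mice and at 1.91, 1.01, 1.16, 1.32 and 1.02 in DEN mice (2.02 ± 0.51, 0.00829). KO mice 4 and 5 lay just above the highest DEN mouse and KO mice 1 to 3 further up. Of 22 repair genes 9 were higher, with Rad54l of homologous recombination (3.05 ± 0.46, 0.000655) among them. The 3 lower ones were Chek1, a checkpoint kinase (-1.83 ± 0.31, 0.0011, and -0.78, 0.0839, within scan day 2), Atr, which activates Chek1 (-0.72 ± 0.24, 0.0287, and 0.0683 within scan day 2), and Mgmt, which removes alkyl groups from guanine (-1.14 ± 0.39, 0.0337).

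Targets and regulators of p53 were split, with 7 of 27 higher and 5 lower in KO tumours (median 0.07). Over all genes 16.9% were higher and 32.6% lower, so that this list held a larger share of higher genes and a smaller share of lower ones. Cdkn1a, the cell cycle inhibitor p21 and a leading p53 target, was at -0.84, -1.38, -1.68, -2.60 and -1.61 in KO mice and at 0.80, 0.30, -0.31, -1.33 and -1.40 in DEN mice. The groups overlapped through DEN mice 4 and 5, and the change of -1.23 ± 0.48 lay next to the threshold (adjusted p 0.0518). Mdm2, a target that in turn degrades p53, differed by -0.35 ± 0.25 (0.265). Pmaip1, the death protein NOXA, read 3.23, 3.67, 2.32, 1.73 and 2.32 in KO mice and -1.06, 0.77, -2.14, -1.82 and -0.53 in DEN mice (3.61 ± 0.56, 0.000747), every KO mouse above every DEN mouse. Apaf1, of the apoptosome (1.78 ± 0.28, 0.000791), and Gadd45a, a stress protein (1.22 ± 0.26, 0.00362), were also higher. Btg2, an inhibitor of proliferation (-1.88 ± 0.41, 0.00377), Perp, a membrane protein of desmosomes (-1.18 ± 0.29, 0.00745), and Sesn2, a sestrin (-0.75 ± 0.21, 0.0134), were lower. The median turned to -0.19 without DEN mouse 4 and to -0.23 without KO mice 1 and 2.

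Growth factor receptors of epithelia were arranged differently in the 2 kinds of tumour. Of 16 genes of the EGF receptor family, its ligands and Met, 7 were lower and 1 higher in KO tumours. Met, the receptor of hepatocyte growth factor (chromosome 6, 17503299 to 17503358, mm9), was at -2.86, -3.19, -2.97, -2.10 and -3.26 in KO mice and at 0.30, 0.63, 2.21, 0.83 and 0.69 in DEN mice, without overlap (-3.81 ± 0.37, adjusted p 9.34e-05). Egfr was at 1.39, 2.56, 1.88, 1.93 and 2.18 in KO mice and at 3.09, 4.16, 3.98, 3.86 and 3.87 in DEN mice (-1.80 ± 0.28, 0.000734). Its ligand gene Areg fell by 3.0 ± 0.52 (0.00127), Mst1, a hepatocyte product that binds the MET relative RON, by 3.27 ± 0.36 (0.00016), and Errfi1, a feedback inhibitor of EGFR, by 2.82 ± 0.39 (0.000436). Erbb2 (HER2, chromosome 11, 98298103 to 98298162, mm9) was the one that rose. It was at -0.09, -0.78, 0.06, -2.04 and -1.73 in KO mice and at -4.15, -2.81, -3.77, -3.59 and -3.69 in DEN mice (2.68 ± 0.44, 0.000961), with all KO mice above all DEN mice. Downstream, Etv4 (1.96 ± 0.49, 0.00786) and Etv1 (1.35 ± 0.38, 0.0142), ETS factors induced by ERK, were higher. Of 17 ERK genes these 2 were higher and 5 lower, a smaller share than the 32.6% of all genes that were lower, and within scan day 2 only 2 were lower. The 5 included the feedback inhibitors Spry4 (-2.58 ± 0.54, 0.00304), Dusp5 (-1.93 ± 0.40, 0.00307) and Dusp6 (-1.21 ± 0.24, 0.00268). Within scan day 2 Dusp5 (0.199) and Dusp6 (0.0666) no longer passed the test.

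In the IGF system 4 of 19 genes were higher and 7 lower, shares close to the 16.9% and 32.6% of all genes. Among its binding proteins, Igfbp6 (3.49 ± 0.58, adjusted p 0.000996) and Igfbp5 (3.01 ± 0.73, 0.00658) were higher and Igfbp1, which hepatocytes secrete (-3.61 ± 0.60, 0.00102), was lower. The hormone gene Igf1 fell by 2.14 ± 0.52 (0.00652, and 0.159 within scan day 2), the prolactin receptor gene Prlr by 2.98 ± 0.56 (0.0018), and Stat5a rose by 1.71 ± 0.22 (0.00035). Of 23 Wnt targets and regulators 13 were higher and 1, Tcf7l2 (-0.78 ± 0.20, 0.00875, and 0.118 within scan day 2, with another probe moving the opposite way), lower (median 1.5). With all probes of a gene averaged, Tcf7l2 was called higher instead (0.77, adjusted p 0.034 in limma). Secreted Wnt inhibitors were among the higher genes: Sfrp1 (5.04), Dkk3 (3.41 ± 0.42, 0.000256), Sfrp4 (4.08 ± 0.59, 0.000521) and Wif1 (3.92 ± 0.59, 0.00065), Sfrp4 and Wif1 being above background on 1 of 7 DEN tumour arrays. Glul, glutamine synthetase, a Wnt target of pericentral hepatocytes, was at 2.12, 2.18, 2.46, 1.89 and 2.85 in KO mice and at 0.36, -1.06, -1.72, 2.59 and 0.67 in DEN mice. KO mice lay close together, DEN mouse 4 lay among them, and the means of KO and WT livers, 5.26 and 4.49, lay above both groups. Its change was 2.14 ± 0.68 (0.0237) over all mice and 0.48 (0.749) within scan day 2. Axin2, a general Wnt target, rose by 1.45 ± 0.44 (0.0186, and 0.0921 within scan day 2). Of 24 Notch and YAP genes 8 were higher, with the Notch ligand gene Jag1 at 2.51 ± 0.32 (0.000295) and the YAP partner gene Tead1 at 2.04 ± 0.40 (0.00232), and Tead4 and Dll4 were lower, with adjusted p of 0.177 and 0.461 within scan day 2.

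**Figure D4:**
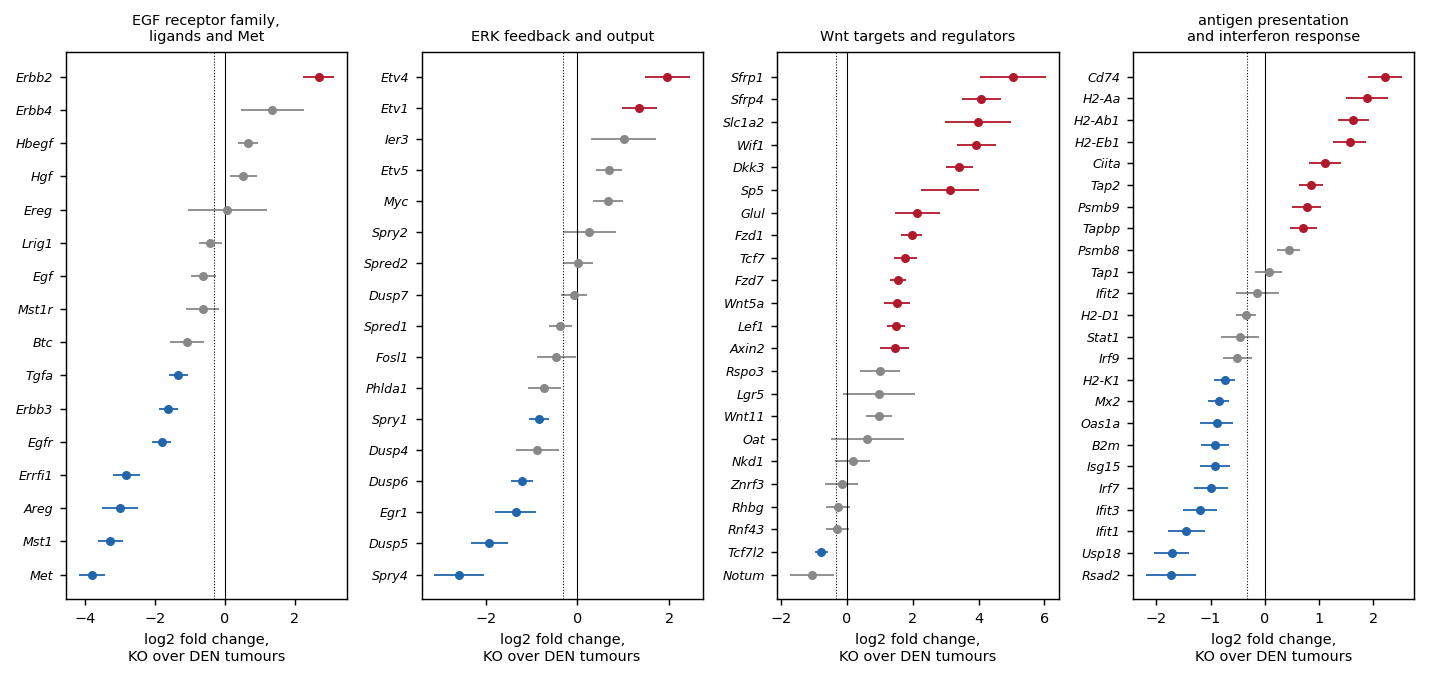
Log2 fold change, KO over DEN tumours, with its SE for every tested gene of 4 lists, coloured red where higher, blue where lower and grey where it did not pass adjusted p 0.05. The dotted line marks the median of all genes, -0.32. Erbb2 rose (2.68) where Met fell (-3.81), and Cd74 rose (2.21) where Usp18 fell (-1.72).

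Matrix and stromal genes were higher in KO tumours. Of 19 collagens 14 were higher and 2 lower (median 2.19, and 3.36 with 16 higher within scan day 2). Without KO mice 1 and 2, 9 were higher, and with slide as a random block 12 were. For 5 of the 19 every KO mouse lay above every DEN mouse, against 10.9% of all genes. Col6a3 rose by 3.57 ± 0.54 (adjusted p 0.000665), Col8a1 by 3.76 ± 0.60 (0.000836) and Col16a1 by 2.61 ± 0.37 (0.000518). The fibrillar Col1a1 was at 5.62, 6.11, 5.44, 4.87 and 5.05 in KO mice and at -0.30, 4.90, 0.91, 2.53 and 2.99 in DEN mice (3.21 ± 0.81, 0.00795). DEN mouse 2 reached KO mouse 4, and the other DEN mice stayed below. Col18a1, of hepatocytes and vessels (-1.06 ± 0.35, 0.0273), and Col17a1 (-1.34 ± 0.44, 0.0269, and 0.165 within scan day 2) were lower. Of 20 metalloproteases and inhibitors 10 were higher. Mmp7, matrilysin, of ducts and crypts, read 6.24, 6.36, 5.92, 1.28 and 3.15 in KO mice and -2.15, 0.22, -3.91, -2.49 and -3.33 in DEN mice (6.92 ± 1.08, 0.000768), and Timp1, an inhibitor of such proteases, rose by 4.98 ± 0.69 (0.000448). Adam12 fell by 2.32 ± 0.32 (0.000411) and Mmp19 by 1.25 ± 0.25 (0.0025).

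Of 19 TGF-beta and mesenchymal genes 9 were higher, among them Ltbp2, a matrix protein of the latent TGF-beta binding family (6.58 ± 0.98, adjusted p 0.000622), Tgfb2 (2.17 ± 0.31, 0.000545) and Snai1, a repressor of epithelial genes (2.31 ± 0.41, 0.00142). Vim, vimentin, was at 5.03, 5.34, 4.87, 3.87 and 4.71 in KO mice and at 1.28, 4.09, 1.69, 2.22 and 2.67 in DEN mice (2.37 ± 0.49, 0.00308), and Inhba was lower (-1.34 ± 0.42, 0.0212, and 0.407 within scan day 2). Genes of epithelial adhesion to laminin also differed, and adhesion itself was not measured. Of 21 integrins and laminins 10 were higher, among them Lamb3 (3.34 ± 0.34, 0.000105) and Itgb4 (4.19 ± 0.76, 0.00151), which belong to the laminin of hemidesmosomes and to its receptor. Lama3, another chain of that laminin, was lower (-1.17 ± 0.43, 0.0438), with another probe moving the opposite way and a change of -0.08 (0.898) within scan day 2. Among 20 S100 proteins and annexins 8 were higher, such as S100a4 (3.17 ± 0.32, 0.000105), Anxa8 (6.22 ± 0.91, 0.000574) and Anxa10 (5.97 ± 0.64, 0.000149), and Anxa6 fell by 1.32 ± 0.19 (0.000545).

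Chemokines were higher for 8 of 18 genes. Ccl7, which draws monocytes (4.57 ± 0.53, adjusted p 0.000196), the fractalkine gene Cx3cl1 (3.58 ± 0.55, 0.00069) and Cxcl16 (2.28 ± 0.32, 0.000473) were among them, and Cxcl1, of neutrophils, fell by 1.65 ± 0.46 (0.0131). In the list of antigen presentation and interferon genes 8 of 24 were higher and 10 lower, and 9 and 6 after normexp and quantile scaling. Cd74, the invariant chain of MHC class II, was at 5.12, 4.28, 5.62, 4.60 and 5.43 in KO mice and at 2.18, 3.32, 2.95, 2.91 and 2.65 in DEN mice (2.21 ± 0.31, 0.000499), and the class II genes H2-Ab1 and H2-Eb1 rose by 1.63 ± 0.28 (0.00126) and 1.57 ± 0.30 (0.00213). Among the lower genes were Usp18 (-1.72 ± 0.32, 0.00189), Ifit1 (-1.45 ± 0.34, 0.00528) and Mx2 (-0.85 ± 0.20, 0.00538), which interferon induces. The MHC class I genes H2-K1 (-0.74) and B2m (-0.92) were also lower, but after normexp and quantile scaling H2-K1 turned to 0.19 and B2m stood at -0.27, and within scan day 2 the adjusted p of H2-K1 was 0.0682.

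Markers of hepatocytes and cholangiocytes include genes already given above, such as Alb, Cps1, Epcam and Krt19, so that their counts are not separate evidence. All 8 hepatocyte markers were lower in KO tumours (median -3.29), and 5 of them after normexp and quantile scaling (median -2.66). Of 9 cholangiocyte markers 6 were higher and 0 lower (median 3.27, and 1.11 after normexp and quantile scaling). Without KO mice 1 and 2, 3 of the 9 were higher. Cftr, the chloride channel of ducts, rose by 3.28 ± 0.56 (adjusted p 0.00118). Of 14 stellate cell and fibroblast markers 8 were higher and 1, Reln (-2.14 ± 0.45, 0.00314), lower. Their mean level relative to the 10 tumour mice was -0.10 to 1.02 in KO mice and -1.48 to 0.57 in DEN mice. Lum, a matrix proteoglycan (3.54 ± 0.57, 0.000913), and Pdgfrb (1.99 ± 0.41, 0.00278) rose, and the part of such cells in the collagen and Wnt inhibitor results was not tested. Of 11 macrophage markers 5 were higher, such as C1qa (1.82 ± 0.35, 0.00209) and Cd68 (1.61 ± 0.37, 0.00522), and Cd5l, of Kupffer cells, the resident macrophages of liver, was lower (-3.65 ± 1.16, 0.0237). Within scan day 2, 4 of the 11 were higher and 4 lower, and without KO mice 4 and 5, 4 were higher and 3 lower. The score of the whole macrophage list was -1.65 to 2.42 in KO mice and -1.24 to 0.69 in DEN mice. Such antigen-presenting cells express Cd74, H2-Ab1 and H2-Eb1, and their part in those results was not tested.

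Of 11 T and NK cell markers 2 were higher and 4 lower, shares close to the 16.9% and 32.6% of all genes. The T cell receptor chains parted: Cd3d (2.27 ± 0.37, adjusted p 0.000927) and Cd3g (2.24 ± 0.48, 0.0037, and 0.0898 within scan day 2) were higher and Cd3e (-1.48 ± 0.30, 0.00287) lower, and the groups did not overlap for any of these chains. Cd4 was lower too (-3.79 ± 0.95, 0.00795). Of 7 B and plasma cell markers 4 were higher, including Jchain, of secreted antibodies, with -1.05 in KO mouse 2, 4.12 to 5.69 in the other 4 KO mice and -1.72 to 2.30 in DEN mice (3.33 ± 1.22, 0.0422, and 0.298 within scan day 2). Of the 7, 0 were called within scan day 2 (limma), 0 with scan day or slide as a block and 1 without KO mice 4 and 5, against 7 higher without KO mice 1 and 2. None of 10 neutrophil markers and none of 5 mast cell markers was called by limma at the adjusted threshold. At an unadjusted p under 0.05, 1 neutrophil marker was higher and 1 lower, and 2 mast cell markers were higher. After normexp and quantile scaling 1 neutrophil and 2 mast cell markers were called higher. Within scan day 2, 4 neutrophil markers were lower (median -1.57) and 1 mast cell marker higher, with scan day as a block 3 neutrophil markers were lower and 2 mast cell markers higher, and without KO mice 4 and 5, 3 neutrophil markers were lower and 1 higher. Of 13 endothelial markers 2 were higher and 5 lower, again close to the 16.9% and 32.6% of all genes. The lower ones included Kdr, the VEGF receptor (-1.59 ± 0.26, 0.000923), and the sinusoidal lectin gene Clec4g (-4.11 ± 0.78, 0.00191). The mesothelial genes Msln (6.39 ± 0.99, 0.000725) and Wt1 (4.55 ± 0.75, 0.000992) were higher, as 2 of 6 markers of that layer. Msln, which tumours of ducts also express, was at -0.30 in KO mouse 4 and at 3.29 to 5.16 in the other 4 KO mice, against -4.89 to -1.97 in DEN mice. Erythroid markers were lower for 3 of 4, with Hba-a1, alpha globin, at -4.30 ± 0.60 (0.000456). Of 7 female-biased liver genes 6 were lower and of 8 male-biased ones 3, with 0 higher in both, and the sexes of the mice are not given. The lower share of the male-biased genes was close to the 32.6% of all genes.

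The spread among KO mice lay partly along the axis that separated the groups. The first principal component, which parted KO from DEN mice, held 59.7% of the variance between the 10 mice and the second 12.2%. On the second, KO mice 4 and 5, which shared slide and scan day, stood at 96.61 and 89.3. KO mice 1 to 3, on another slide and day, stood at -74.92, -12.28 and -68.12, and DEN mice at -38.82 to 43.33. Among KO mice that axis thus went with slide and day, which cannot be told apart from mouse. KO mouse 4 had the lowest position of the KO mice on the first component, 57.89 against 117.78 to 159.02 in the other 4, and -165.03 to -101.94 in DEN mice. Among the 19 lists with more genes lower than higher, KO mouse 4 had the highest score of the KO mice in 15. Among the 17 lists with more genes higher than lower it had the lowest score of the KO mice in 13. The scores of the groups did not overlap in 10 of the 19 and 10 of the 17 lists. The lists were sorted by the calls of these same mice, so that this count is a description and not a test. KO mouse 1 had the lowest urea cycle score, -3.34, against 0.07 in KO mouse 4 and 1.55 to 2.28 in DEN mice. DEN mouse 2 had the highest score of the DEN mice in 10 of the 17 lists, among them collagens, where KO mice had 0.38 to 1.44, DEN mouse 2 had 0.34 and the other 4 DEN mice -1.99 to -0.75. Without KO mice 4 and 5 there were 4560 genes higher and 7391 lower. Without KO mice 1 and 2, which showed no Y-linked transcript above background, there were 2945 higher and 5946 lower.

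**Figure D5:**
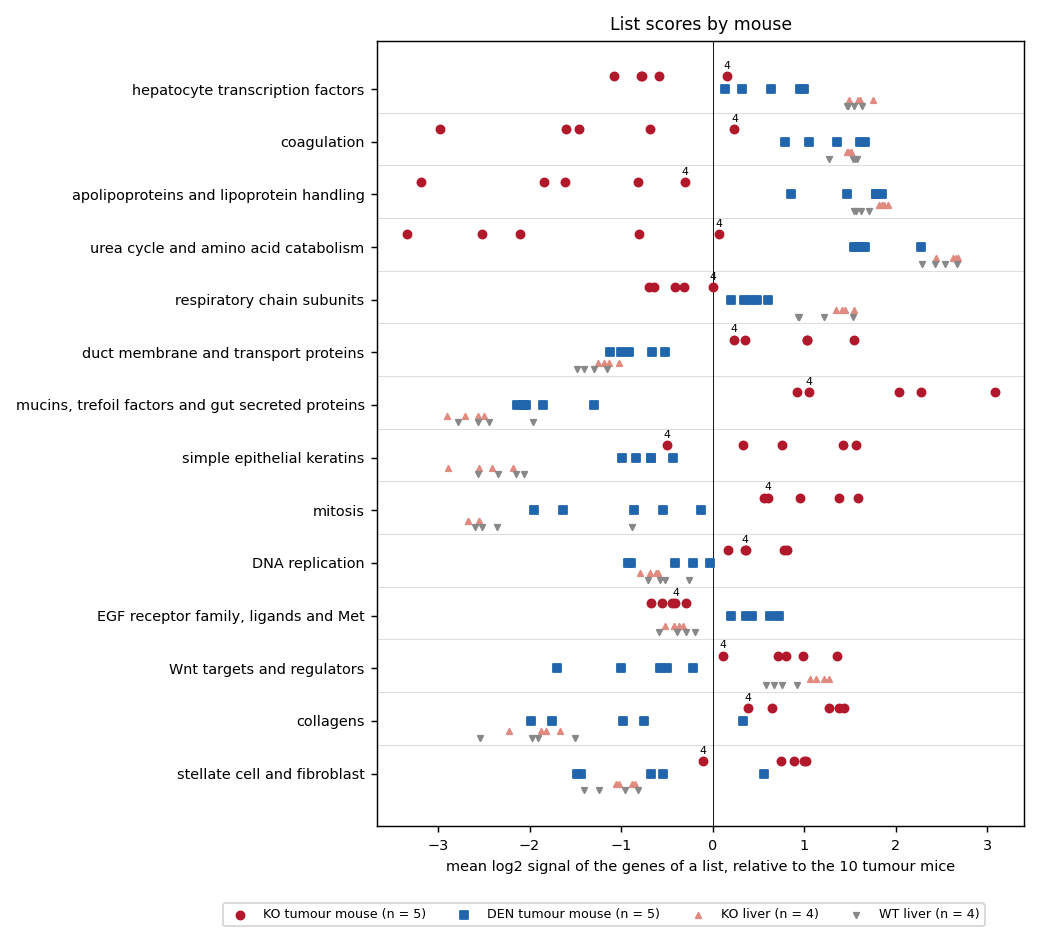
Mean log2 signal of the genes of 14 lists in each mouse, relative to the mean of the 10 tumour mice: KO tumours (red circles, mouse 4 numbered), DEN tumours (blue squares), KO livers (pale upward triangles) and WT livers (grey downward triangles). KO mouse 4 sat nearest to the DEN mice for coagulation, apolipoproteins and the urea cycle, where all KO mice were still below all DEN mice. For Wnt genes the livers lay near KO tumours, at 0.58 to 1.27.

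For hepatocyte transcription factors KO mice scored -1.08 to 0.16 and DEN mice 0.13 to 1.0, and both liver groups lay above them at 1.47 to 1.75. For coagulation genes all KO mice, at -2.97 to 0.24, lay below the DEN mice, at 0.79 to 1.67, and the livers, at 1.27 to 1.58, lay within the DEN range. For mitosis genes KO mice had 0.57 to 1.59, DEN mice -1.95 to -0.12 and livers -2.67 to -0.88. Each liver group lay on a slide of its own, so these levels are a description only.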

How the data were processed

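RNA of 21 samples was read on 1-colour Agilent arrays, 1 array per sample. The deposited values are spot intensities from Agilent Feature Extraction 10.7.3.1 with probe coordinates in mm9, per the file headers, which record background subtraction and spatial detrending. The authors' deposited log2 value table of the same arrays served as an alternative, and no label or header gives its scaling.

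Processed signals were put on the log2 scale and set against the 75th percentile of each array, control spots and outlier spots being left out. Probes were kept where 4 or more of the 13 tumour arrays were well above background, and the probe with the highest mean stood for its gene. Tumours of 1 mouse were averaged, and limma 3.58.1 (R 4.3.3) tested 5 KO against 5 DEN mice on 23242 genes with Benjamini-Hochberg adjustment. No label names the animal, so that p-values measure the spread between these numbers. The script was tested on simulated data. Named genes were the 12 largest changes each way without overlap of the mice, up to 3 genes each way per list by adjusted p, a set of lineage and p53 genes, and members that moved against their list. The comparison, the gene lists and the markers were chosen with earlier results of these data known. Sfrp1, Foxa1, Foxa2, Foxa3, Krt8, Krt18, Ldha, Gapdh, Tpi1, Prom1, Cyp2e1, Cyp7a1, Aqp5, Areg, Axin2, B2m, Bub1b, Cdc6, Col1a1, Egfr, Fgb, H2-K1, Mcm6, Mmp7, Muc13, Plk1 and Spink1 and the genes with printed promoters were chosen after their values were seen. A list score is the mean level of its genes relative to the 10 tumour mice.

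Alternatives were other scalings and filters, other probe rules, slide or scan day as a block, values within scan day 2, and leaving out mice. Promoter windows came from RefSeq (GRCm38.p6), by gene symbol. Results on some genes are not reported here.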

Additional observations from a re-analysis of the deposited data

Results flagged for a closer look

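In 27 of 518 groups of 5 mice checked, 1 mouse stood apart from the other 4, its gap to the nearest mouse taking more than 0.71 of the range of the group. Chance gives about 1 such group in 20. The ratio of gap to range follows each name.

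DEN mouse 2 was the one apart most often. Among list scores it was lowest for plasma carriers and protease inhibitors (0.781) and highest for the urea cycle and amino acid list (0.839) and for widely expressed glucose genes (0.716). Among genes it was highest for Reg3b (0.943), Reg3g (0.78), Spp1 (0.765) and Jag1 (0.716), and lowest for H2-K1 (0.866), Cyp2d26 (0.784), Ctrb1 (0.756) and Cxcl1 (0.75). For Reg3b it reached 2.12, against -8.23 to -7.64 in the other DEN mice.

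KO mouse 4 was lowest of the KO mice for the stellate cell and fibroblast score (0.752), Krt19 (0.754) and Dkk3 (0.717), and highest for Wif1 (0.864), Cldn14 (0.837) and Rxra (0.804).

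Among the other KO mice, mouse 5 was lowest for Krt18 (0.76), mouse 2 for Jchain (0.767) and mouse 1 for Ocln (0.711). Among the other DEN mice, mouse 1 was lowest for H2-Eb1 (0.855), H2-Ab1 (0.773) and Egfr (0.723), mouse 3 was lowest for Krt7 (0.734) and highest for Met (0.722), mouse 4 was lowest for Sox9 (0.803), and mouse 5 for Igf1 (0.711).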

How the results depend on the processing

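Leaving out 1 mouse at a time gave 3329 to 4217 genes higher and 6467 to 7771 lower in KO tumours. Slide as a random block gave 2599 genes higher, the lowest count of the alternatives run, and the fit without KO mice 1 and 2 gave the next lowest, 2945. The lower share of the calls, 65.9%, was 54.1% after normexp and quantile scaling, 59.0% with scan day as a block and 57.3% within scan day 2. The median of the p53 targets list turned to -0.19 without DEN mouse 4 and to -0.23 without KO mice 1 and 2, and that of the T and NK cell list to -0.47 where probes had to be above background on every array of a group. Medians that crossed 0 by less than the spread between mice were those of duct and gut transcription factors (-0.04 without DEN mouse 1), widely expressed glucose genes (-0.03 without KO mice 1 and 2), neutrophil markers (0.01 after normexp) and, in 5 further alternatives, p53 targets (-0.05 to -0.02). Gapdh (0.11) and H2-K1 (0.19) changed sign after normexp and quantile scaling, and Hmga1 (-0.14), Tcf7l2 (0.77, then called higher) and Lama3 (0.28) when all probes of a gene were averaged. Of 205 named genes, 193 were called and 149 kept their direction and call under every alternative that tested them. Within scan day 2, 31 of the 193 were not called and 0 changed sign. The causes were not tested. Signal near background limits dim probes, whose fold changes normexp made smaller. No paired analysis was possible because the tumour numbers of the groups come from different mice.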
